A study of Mus musculus with 8 samples.

Results

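Retinoic acid is made from vitamin A and acts through nuclear receptors, and 9 genes of this pathway were followed through the removal and return of TAF4, which is part of TFIID, the complex that places RNA polymerase II at promoters. They are the receptor genes Rara, Rarb, Rarg and Rxra, the carrier genes Crabp1 and Crabp2, and the uptake and metabolism genes Stra6, Cyp26b1 and Dhrs3. Every row of the deposited expression table with 1 of these symbols was taken, 18 transcripts in all, and transcripts were summed per gene. The 9 genes stand against 23281 genes in the table.

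In cells, retinol enters from the blood, is oxidised to retinal and then to retinoic acid, and DHRS3 turns retinal back to retinol. CRABP proteins carry retinoic acid in the cytoplasm, and CYP26 enzymes oxidise it for removal. Inside the nucleus a retinoic acid receptor (RAR) pairs with a retinoid X receptor (RXR) on repeated short sites in DNA, and in some embryonic cells the genes Rarb, Cyp26b1, Dhrs3 and Stra6 are known to rise when retinoic acid is present.

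RNA of mouse embryonic fibroblasts (MEF), connective tissue cells in culture, was sequenced as 8 libraries in 4 groups of 2, all of strain C57BL/6. The TAFH-deleted rescue group holds clones 1 and 2 of Taf4 -/- cells that stably express human TAF4 (hTAF4) without its TAFH domain, a conserved protein-binding part. The wild-type rescue group holds clones 1 and 2 of Taf4 -/- cells that stably express full-length hTAF4 (full-length clones). The knockout group is Taf4 -/- cells (replicates 1 and 2), and the control group is Taf4 loxp/- cells (replicates 1 and 2), which carry a floxed allele beside a null allele (a second field of the labels gives their genotype as wild type). All cells were kept in medium with fetal bovine serum, and the labels name no retinoid treatment. Each rescue library is a different clone, so differences between clones and differences between forms of TAF4 rest on 2 clones a form. The series title names E proteins, transcription factors that bind the DNA sequence CANNTG, as partners of TAF4.

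Levels are the authors' deposited FPKM, in which fragment counts are divided by transcript length and library size. The spacing of low values implied between 14300000 and 17300000 fragments a library. Replicates 1 and 2 of knockout, and likewise those of control, differed by less than sampling noise, so each group was counted as 1 sample. The mean chi-square per gene was 0.617 ± 0.0341 SE in knockout and 0.737 ± 0.0344 SE in control. It used only single-transcript genes with few fragments (705 and 808), where counting noise can hide other spread. Over all tested genes, 6 were at least 2-fold apart in each pair. Clones differed by more, with a chi-square of 2.45 ± 0.104 SE for the TAFH-deleted and 1.57 ± 0.0653 SE for the wild-type rescue clones, and 923 and 39 tested genes at least 2-fold apart. Of 11 fibroblast markers, 10 were at 34.5 to 146 FPKM and Thy1 was at or below 0.0773 FPKM, and the 6 epithelial, 4 endothelial and 3 skeletal muscle markers were below 1 FPKM in every library. Of 5 blood and macrophage markers, Ptprc and Emr1 were at or below 0.0229 FPKM, while Csf1r reached 1.09, Cd68 3.45 and Lyz2 7.76 FPKM. Of 4 neural markers, Gfap was at or below 0.0484 FPKM, while Sox2 was at 4.62 to 20.2, Tubb3 at 1.52 to 14.5 and Nes at 0.579 to 8.03 FPKM. The neural list summed to 11.4 to 29.0 FPKM in TAFH-deleted clones, 18.0 to 19.3 in full-length clones, 15.7 to 16.5 in knockout cells and 32.0 to 34.9 in control cells, and the blood list to 1.26 to 4.54, 6.07 to 10.6, 3.31 to 3.36 and 6.47 to 7.76 FPKM in the same groups. The part of such cells in the results was not tested. The mouse Taf4 gene (Taf4a in the table) was at 14.7 and 19.2 FPKM in TAFH-deleted clones, 14.5 and 15.0 in full-length clones, 12.5 and 12.4 in knockout cells and 11.1 and 11.5 in control cells, so its total level does not check the labels. Which exons the deletion removes is not given in the labels.

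Of the 9 genes, 7 reached 1 FPKM in at least 2 libraries and entered the test, and Crabp1 and Stra6 did not. In control cells the order of mean levels per length was Rarg, Crabp2, Dhrs3, Rxra, Rara, Cyp26b1 and Rarb, and no neighbours in that order had overlapping control libraries. The order was not the same in every group. In knockout cells Crabp2 stood above Rarg, and Dhrs3 below Rxra. Dhrs3 stood above Crabp2 in both full-length clones, and below Rxra and Rara in both TAFH-deleted clones. In TAFH-deleted clone 2 Dhrs3 also lay below Cyp26b1, and Rxra below Rara.

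**Figure D1:**
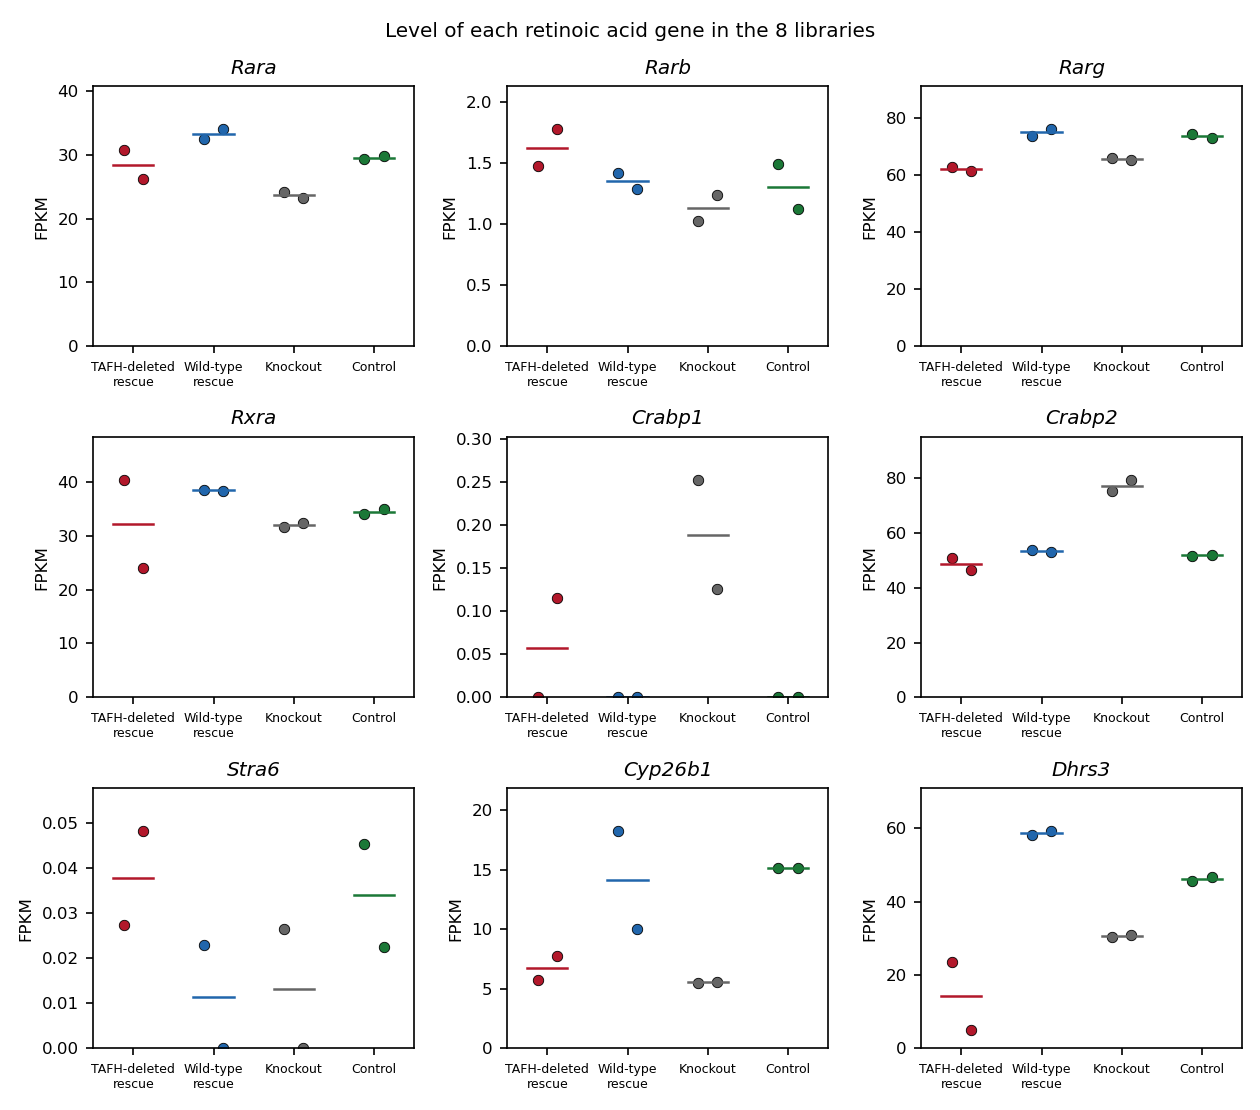
Level of each of the 9 genes in the 8 libraries. Each panel is 1 gene with its own vertical axis in FPKM from 0, points are libraries and lines are group means, from the TAFH-deleted rescue on the left to control on the right; the largest gap between groups is in Dhrs3, with 23.6 and 5.07 FPKM in the TAFH-deleted clones and 58.2 and 59.1 FPKM in the full-length clones.

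Among the receptors, Rara (chr11:98799010-98836256 in mm9), which encodes RARα, was at 30.7 and 26.1 FPKM in TAFH-deleted clones, 32.4 and 34.0 in full-length clones, 24.1 and 23.2 in knockout cells and 29.2 and 29.8 in control cells. Both knockout libraries lay below the other 6. Knockout and control each count as 1 sample, so a lack of overlap with them, here and below, adds little. Its share over all genes was not counted. With limma and Benjamini-Hochberg adjustment over 12025 genes, the wild-type rescue differed from knockout by 0.47 ± 0.14 (SE) on the log2(FPKM + 1) scale (adjusted p = 0.344), and knockout from control by -0.31 ± 0.17 (adjusted p = 0.643). Rara has 4 transcripts in the table, and the authors' split of reads among them is an estimate.

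Rarg (chr15:102065371-102087914), which encodes RARγ and had the highest level per length of the receptor genes, was at 62.8 and 61.6 FPKM in TAFH-deleted clones, 74.0 and 76.1 in full-length clones, 66.0 and 65.5 in knockout cells and 74.5 and 73.1 in control cells. The TAFH-deleted clones and knockout were therefore low together, and the wild-type rescue and control were high together, with no overlap. The TAFH-deleted rescue was lower than the wild-type rescue by a small step, a log2 difference of -0.27 ± 0.06 (SE, 2 clones each), which did not pass the adjusted threshold with limma (adjusted p = 0.0922). Its 2917-base transcript was at 31.8 and 33.2 FPKM in TAFH-deleted clones, 35.9 and 36.9 in full-length clones, 30.7 and 30.4 in knockout cells and 40.2 and 38.6 in control cells. Its 2570-base transcript was lowest in the TAFH-deleted clones, at 31.1 and 28.4 FPKM, against 38.1 and 39.2 in full-length clones, 35.3 and 35.1 in knockout and 34.3 and 34.5 in control. The pattern of the summed gene thus joined 2 transcripts whose lowest libraries were in different groups. Rarg fragments took up 39.0 to 56.3% of the gene's possible read starts, and whether this limits its level was not tested.

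Rxra (chr2:27532721-27618839) encodes RXRα, the shared partner of the RARs and of several other nuclear receptors. It was at 40.2 and 24.0 FPKM in TAFH-deleted clones, 38.5 and 38.3 in full-length clones, 31.7 and 32.4 in knockout cells and 34.0 and 34.9 in control cells. TAFH-deleted clone 1 was the highest library and clone 2 the lowest, so the group spans all others. Its log2 difference from the wild-type rescue was -0.29 ± 0.26 (SE, limma adjusted p = 0.498), and without clone 2 it was 0.067.

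Rarb (chr14:17263354-17407724 in mm9) encodes RARβ and is itself known as a target of the receptors. It was low throughout, at 1.47 and 1.77 FPKM in TAFH-deleted clones, 1.41 and 1.29 in full-length clones, 1.02 and 1.23 in knockout cells and 1.49 and 1.12 in control cells. These levels stand for 39 to 74 fragments a library, so counting error alone is wide: 39 fragments have an exact 95% Poisson interval of 27.7 to 53.3. Both TAFH-deleted clones lay above both full-length clones, by a log2 difference of 0.16 ± 0.16 (SE, limma adjusted p = 0.562). The RefSeq start site used for Rarb was not matched to the transcript measured here. The window around it is shown because it holds a repeat of the kind RAR and RXR bind. It runs over chr14:16575427-16575726 on the minus strand (GRCm38.p6, RefSeq; mm9 is the build of the expression table), from 250 bases before the start site to 50 after, and capitals mark a CANNTG box and the direct repeat.

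Rarb: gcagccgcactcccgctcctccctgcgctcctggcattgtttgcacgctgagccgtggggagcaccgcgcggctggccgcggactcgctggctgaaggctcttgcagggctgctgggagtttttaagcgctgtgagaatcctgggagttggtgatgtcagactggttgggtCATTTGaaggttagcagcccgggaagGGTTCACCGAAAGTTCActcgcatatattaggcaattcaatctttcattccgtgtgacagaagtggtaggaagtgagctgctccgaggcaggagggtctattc

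The repeat begins at -53 bases from the start site and joins a GGTTCA hexamer to an AGTTCA hexamer with 5 bases between them. The search took AGGTCA as the hexamer, with AGTTCA allowed in its place, likewise the hexamer GGTTCA and, as the last form, GGGTCA. Direct repeats of these with a spacing of 5 bases, read on both strands, occurred in 0.0975% of 32817 windows of the same length. They were in 1 of the 18 windows of 8 of the genes. Spacings of 1 base (0.222% of all windows) and 2 bases (0.268%) were searched too, and 0 of the 18 windows held either. A single hexamer was in 43.7% of all windows and in 6 of the 18. A match is a description of letters and says nothing of binding in these cells. The gene with this repeat was at 1.02 to 1.77 FPKM in all 4 groups.

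Of the carriers, Crabp1 (chr9:54612615-54620916 in mm9) was listed at 0 and 0.115 FPKM in TAFH-deleted clones, 0 and 0 in full-length clones, 0.252 and 0.126 in knockout cells and 0 and 0 in control cells. These were 0, 1, 0, 0, 2, 1, 0 and 0 fragments, and 3 fragments, taken as the limit for a count of 0, are 0.323 to 0.392 FPKM in this gene. The exact two-sided 95% Poisson bound for a count of 0 is wider, at 3.69 fragments, so no difference was detectable at this depth. A low value here is what the table lists and may not be the level in the cells: Gapdh, used by all cells, was listed at 0.0682 to 0.599 FPKM, while Actb was at 93.9 to 113 FPKM.

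Crabp2 (chr3:87752615-87757294), whose product delivers retinoic acid to the receptors in the nucleus, was at 50.9 and 46.4 FPKM in TAFH-deleted clones, 53.9 and 53.0 in full-length clones, 75.3 and 79.2 in knockout cells and 51.6 and 52.0 in control cells. Both knockout libraries lay above the other 6, and it was the only one of the 7 tested genes whose level was higher in knockout than in control, except that Rarb was too under quantile normalization (0.24). Knockout exceeded control by 0.57 ± 0.11 (SE) on the log2(FPKM + 1) scale (limma, unadjusted p = 0.00645, adjusted p = 0.308). The TAFH-deleted rescue differed from knockout by -0.66 ± 0.10 (adjusted p = 0.468), and the wild-type rescue by -0.52 ± 0.10 (adjusted p = 0.239). Between the rescue forms the difference was -0.14 ± 0.08 (adjusted p = 0.320). In the authors' deposited table, Crabp2 had Cuffdiff q = 3.08e-13 between knockout and control and q = 0.00175 between the wild-type rescue and knockout. Between the TAFH-deleted rescue and knockout it had q = 0.9999. Of all transcripts the authors tested, 53.8, 25.8 and 0.957% were marked in the same order of comparisons. Whether their test, here and below, counted the knockout and control pairs, which differed by less than sampling noise, as replicates was not checked. Fragments filled 43.1 and 45.3% of the gene's read starts in knockout and 34.4 and 34.8% in control. The fullest gene of each library filled 92.7 to 97.4%, and whether a limit on reads per position bears on the Crabp2 level was not tested.

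Of the uptake and metabolism genes, Stra6 (chr9:57976895-58001804), which encodes a membrane receptor for retinol carried by its blood binding protein, was listed at 0.0273 and 0.0481 FPKM in TAFH-deleted clones, 0.0229 and 0 in full-length clones, 0.0263 and 0 in knockout cells and 0.0452 and 0.0225 in control cells. No library held more than 2 fragments of it, and no difference was detectable.

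Cyp26b1 (chr6:84521408-84543902 in mm9), which encodes an enzyme that oxidises and clears retinoic acid, was low in knockout and in the TAFH-deleted clones. It was at 5.75 and 7.75 FPKM in TAFH-deleted clones, 18.2 and 10.0 in full-length clones, 5.47 and 5.60 in knockout cells and 15.1 and 15.1 in control cells. The wild-type rescue clones lay on either side of control, and clone 2 was nearer to the TAFH-deleted clones than clone 1 was. Knockout differed from control by -1.30 ± 0.48 (SE) on the log2(FPKM + 1) scale (limma adjusted p = 0.538), and the wild-type rescue from knockout by 1.15 ± 0.42 (adjusted p = 0.374). The TAFH-deleted rescue differed from knockout by 0.23 ± 0.42 (adjusted p = 0.904) and differed from the wild-type rescue by -0.92 ± 0.34 (adjusted p = 0.178). These values turn on the full-length clones: without clone 1 the TAFH-deleted rescue differed from the wild-type rescue by -0.52 and without clone 2 by -1.32, and the wild-type rescue differed from knockout by 0.75 and 1.55. Most of the signal was the 4700-base transcript, which made up 75.5 to 100% of the gene's level in the 8 libraries. In the authors' deposited table this transcript had Cuffdiff q = 0.000204 between knockout and control. It had q = 0.9999 between the TAFH-deleted rescue and knockout, and was not tested there between the wild-type rescue and knockout. The 4751-base transcript had q = 0.682 between knockout and control.

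Dhrs3 (chr4:144482730-144517548 in mm9), which encodes the reductase that returns retinal to retinol and so limits retinoic acid, showed the widest range of the 7 tested genes on the log2(FPKM + 1) scale. It was at 23.6 and 5.07 FPKM in TAFH-deleted clones, 58.2 and 59.1 in full-length clones, 30.2 and 31.0 in knockout cells and 45.7 and 46.8 in control cells. The wild-type rescue lay above control, control above knockout, and knockout above both TAFH-deleted clones, with knockout and control each counted as 1 sample. The TAFH-deleted rescue averaged 14.3 ± 13.1 FPKM and the wild-type rescue 58.7 ± 0.696 FPKM (SD, n = 2 clones each). Their log2 difference was -2.29 ± 0.71 (SE), which did not pass the adjusted threshold (limma, unadjusted p = 0.0299, adjusted p = 0.135). Knockout differed from control by -0.58 ± 1.00 (SE) on the same scale. The wild-type rescue differed from knockout by 0.92 ± 0.86, and the TAFH-deleted rescue from knockout by -1.37 ± 0.86. None of these steps passed the adjusted threshold. Taken singly, TAFH-deleted clone 1 was -1.28 and clone 2 was -3.30 from the wild-type rescue on the same scale, and -0.36 and -2.38 from knockout. Its fragments filled 13.1 and 3.41% of the gene's read starts in TAFH-deleted clones, 40.6 and 40.4% in full-length clones, 17.4 and 17.8% in knockout cells and 32.2 and 33.2% in control cells, with the same untested limit.

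The low level in clone 2 covered both transcripts of Dhrs3. The 1713-base transcript was at 12.1 and 3.84 FPKM in TAFH-deleted clones, 40.7 and 38.6 in full-length clones, 15.7 and 16.0 in knockout cells and 31.5 and 33.4 in control cells. The 1349-base transcript was at 11.5 and 1.23 FPKM in TAFH-deleted clones, 17.5 and 20.5 in full-length clones, 14.6 and 15.0 in knockout cells and 14.2 and 13.5 in control cells. Knockout lay below control in the longer transcript and slightly above it in the shorter. The longer took 51.8 and 51.6% of the gene's level in knockout and 69.0 and 71.2% in control. Its share was 70.0 and 65.3% in full-length clones, and 51.2 and 75.7% in TAFH-deleted clones 1 and 2. The split of reads between transcripts is the authors' estimate. In the authors' deposited table the 1713-base transcript had q = 0.00346 between knockout and control and the 1349-base transcript q = 0.944.

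**Figure D2:**
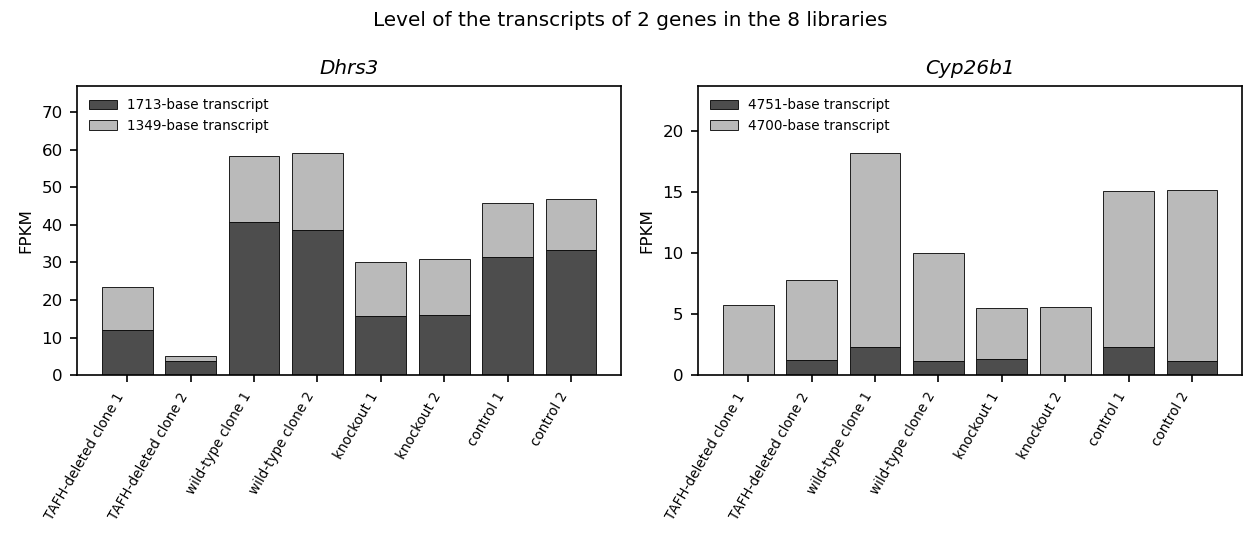
Levels of the transcripts of Dhrs3 and Cyp26b1 in the 8 libraries. Bars are stacked FPKM per library, dark for the longer and light for the shorter transcript, with the TAFH-deleted clones on the left and control on the right; in Dhrs3 the longer transcript makes up 51.8 and 51.6% of the bar in knockout and 69.0 and 71.2% in control, and in Cyp26b1 the shorter one makes up most of every bar.

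Windows around start sites of Dhrs3 and Cyp26b1 are shown because these genes had the largest differences. The longer and the shorter Dhrs3 transcript begin at separate sites. The Cyp26b1 window was matched to neither of its measured transcripts, and another unmatched Dhrs3 window is not shown. All windows are GRCm38.p6, from RefSeq, and capitals mark CANNTG boxes. The window of the longer Dhrs3 transcript is chr4:144892827-144893126 (plus strand), that of the shorter is chr4:144892577-144892876 (plus strand), and that of Cyp26b1 is chr6:84593761-84594060 (minus strand).

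Dhrs3 longer transcript: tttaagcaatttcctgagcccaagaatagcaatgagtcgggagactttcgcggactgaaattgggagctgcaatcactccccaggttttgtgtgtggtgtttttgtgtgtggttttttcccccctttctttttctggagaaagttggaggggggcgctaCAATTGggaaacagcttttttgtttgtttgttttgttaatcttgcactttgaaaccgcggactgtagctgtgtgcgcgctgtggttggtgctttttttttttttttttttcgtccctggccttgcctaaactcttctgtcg
Dhrs3 shorter transcript: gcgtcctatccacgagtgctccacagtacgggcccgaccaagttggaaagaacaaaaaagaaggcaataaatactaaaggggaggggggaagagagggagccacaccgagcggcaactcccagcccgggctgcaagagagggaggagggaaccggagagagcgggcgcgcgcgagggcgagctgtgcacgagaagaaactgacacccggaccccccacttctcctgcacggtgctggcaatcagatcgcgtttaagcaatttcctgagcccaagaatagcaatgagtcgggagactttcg
Cyp26b1: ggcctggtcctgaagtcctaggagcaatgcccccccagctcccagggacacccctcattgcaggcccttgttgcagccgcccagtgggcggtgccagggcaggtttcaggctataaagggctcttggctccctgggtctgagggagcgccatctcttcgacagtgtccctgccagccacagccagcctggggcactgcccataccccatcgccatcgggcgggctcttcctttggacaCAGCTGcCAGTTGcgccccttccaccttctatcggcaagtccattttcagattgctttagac

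The longer transcript's window holds 1 box, CAATTG, at -91 bases from the start site, and the shorter transcript's window holds none. Their start sites are chr4:144893077 and chr4:144892827, and the windows overlap. The box lies downstream of the shorter transcript's start site, past the end of its window. These windows therefore cannot set the transcripts apart by this box. The Cyp26b1 window holds CAGCTG at -12 bases from the start site, and CAGTTG at -5 bases. A CANNTG box on either strand was present in 72.3% of all 32817 windows and in 14 of the 18 windows of these genes, so its presence is common. CAGCTG was in 16.3% of all windows and in 5 of the 18, which were windows of Stra6, Rara and Cyp26b1. Most of these were of Stra6, which was too low to test. Several of the 18 windows belong to the same gene and some overlap, so they do not count as separate genes. CAGGTG, another form of the box, was in 20.2% of all windows and in 2 of the 18.

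Set beside all genes, none of the 7 tested genes passed the adjusted threshold of 0.05 in any of 5 comparisons. Between the TAFH-deleted and the wild-type rescue, 0 of the 7 passed with limma, against 2.62% of the 12025 genes (0.931% higher and 1.69% lower). There 2 of the 7, Dhrs3 and Rarg, had an unadjusted p under the threshold, against 28.8% of all genes. On the log2(FPKM + 1) scale, used for all 2-fold counts here, 1 of the 7, Dhrs3, was at least 2-fold lower in the TAFH-deleted rescue, against 5.94% of all genes, and none was 2-fold higher, against 2.6%. Cyp26b1 lies at that limit, since its mean FPKM was 2.09-fold lower. All TAFH-deleted libraries lay below all wild-type rescue libraries for 5 of the 7, Crabp2, Cyp26b1, Dhrs3, Rara and Rarg, against 26.4% of all genes, and above them for Rarb, against 37.1%. The median log2 difference of the 7 was -0.27, and that of all genes tested was 0.060.

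For knockout against control, 0% of all genes and 0 of the 7 passed the adjusted threshold, and 1 of the 7, Crabp2, had an unadjusted p under it, against 9.21% of all genes. Cyp26b1 alone was at least 2-fold lower, against 5.76% of all genes, and none was 2-fold higher, against 0.798%. The median of the 7 was -0.16 and that of all genes -0.035. Of the 7, 6 were lower (Rarb was higher under quantile normalization), against 54.9% of all genes. For the wild-type rescue against knockout, 0% of all genes passed, and Crabp2, Cyp26b1 and Rara had an unadjusted p under the threshold, against 13.3% of all genes. Cyp26b1 was at least 2-fold higher (but not without full-length clone 1), against 2.85% of all genes, and none was 2-fold lower, against 1.1%. The median was 0.25, against -0.036 for all genes. Of the 7, 6 were higher (Rarb was lower, at -0.040, under quantile normalization), against 45.3% of all genes.

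For the TAFH-deleted rescue against knockout, 0% of all genes passed, Crabp2 alone had an unadjusted p under the threshold, against 6.56% of all genes, and Dhrs3 alone was at least 2-fold lower (but not without TAFH-deleted clone 2), against 2.94%, with none 2-fold higher, against 0.715%. The median of the 7 was -0.041, and 0.033 for all genes. For the wild-type rescue against control, 0% of all genes passed, none of the 7 had an unadjusted p under the threshold, against 11.1% of all genes, and none was at least 2-fold higher or lower, against 0.166% and 4.63%. The 7 lay between -0.15 and 0.34 of control, with a median of 0.045. The comparisons share the knockout, control or wild-type rescue samples, so their values are not independent.

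These counts turn on single libraries. Without TAFH-deleted clone 1, the TAFH-deleted against wild-type rescue comparison called Crabp2, Dhrs3, Rara, Rarg and Rxra, but also 55.9% of all genes, and without clone 2 it called Cyp26b1, Dhrs3 and Rarg and 40.0% of all genes. Without either full-length clone it called no gene. Without either TAFH-deleted clone, knockout against control called Crabp2 and Dhrs3 (22.6 and 22.1% of all genes), the wild-type rescue against knockout called Crabp2, Dhrs3, Rara, Rarg and Rxra (26.7 and 26.6%), and the wild-type rescue against control called Dhrs3 (24.6 and 24.4%). The TAFH-deleted rescue against knockout called Crabp2, Dhrs3 and Rxra without clone 1 (33.4%) and Crabp2 without clone 2 (3.81%). In these fits a lone clone is assumed to vary like the other groups.

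**Figure D3:**
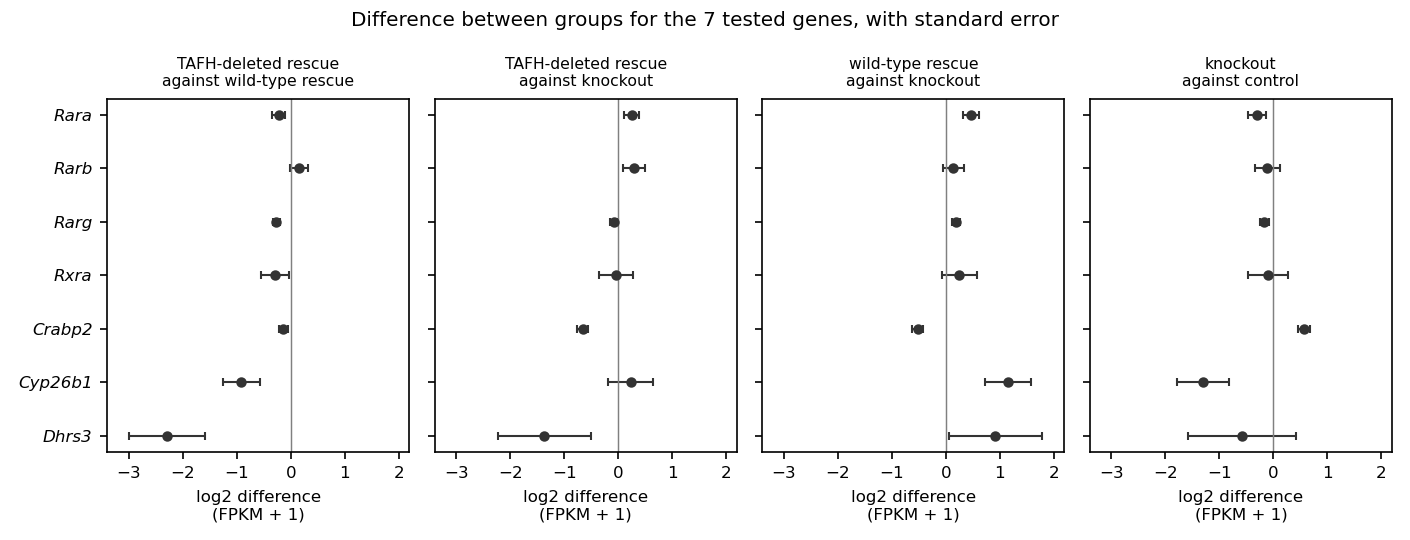
Log2 difference of FPKM + 1 between groups for the 7 tested genes, in 4 comparisons. Points are limma estimates and bars standard errors, with 0 marked by a line; Dhrs3 and Cyp26b1 lie lowest in the TAFH-deleted against wild-type rescue panel, and Crabp2 is the only gene right of 0 in the knockout against control panel, where Rarb turned to 0.24 under quantile normalization.

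The authors' deposited table marked 6 of 11 tested transcripts of the 9 genes between knockout and control, against 53.8% of all transcripts they tested. It marked 3 of 9 between the wild-type rescue and knockout, against 25.8%, and 0 of 11 between the TAFH-deleted rescue and knockout, against 0.957%. The q-value of the 5267-base Rxra transcript was 0.0330 between knockout and control and 0.00356 between the wild-type rescue and knockout.

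The rest of the pathway was described with 6 lists with 96 genes in the table, of which 61 were tested. Rxrb, the other RXR gene above 1 FPKM, was at 31.8 and 30.1 FPKM in TAFH-deleted clones, 31.8 and 34.9 in full-length clones, 31.4 and 31.7 in knockout cells and 36.9 and 36.7 in control cells. Of the genes for retinol and retinal handling and retinoic acid synthesis, 25 were in the table and 12 were tested. Of these 1, Rdh12, passed the test between the rescue forms, lower in the TAFH-deleted clones, against 2.62% of all genes. Rdh12 encodes a reductase that, like DHRS3, turns retinal to retinol. It was at 1.38 and 0.712 FPKM in TAFH-deleted clones, 7.29 and 7.36 in full-length clones, 3.86 and 4.64 in knockout cells and 3.47 and 3.93 in control cells. The TAFH-deleted rescue differed from the wild-type rescue by -2.04 ± 0.23 (SE, limma adjusted p = 0.0467). That call was lost without full-length clone 1 (limma adjusted p = 0.561) or clone 2 (0.454), and also at a pseudocount of 0.1 (0.0601), with no filter (0.0917) and with the most abundant transcript alone (0.0561). Over all alternatives its adjusted p lay between 0.000596 and 0.561.

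In that comparison 9 of the 12 handling and synthesis genes were lower, against 43.9% of all genes, with a median log2 difference of -0.31. Aldh1a1, a retinaldehyde dehydrogenase that makes retinoic acid, was the other gene at least 2-fold lower, against 5.94% of all genes. The genes of this paragraph other than Rdh12 were chosen after their values were seen. Aldh1a1 was at 0.307 and 0.202 FPKM in TAFH-deleted clones, 3.56 and 1.29 in full-length clones, 0.997 and 0.924 in knockout cells and 3.17 and 3.22 in control cells. Aldh1a3 was at most 1.32 FPKM, a control value, and Aldh1a2 at most 0.0569 FPKM, so the 3 enzymes that make retinoic acid were low or near 0 in every library. Rdh10, which oxidises retinol to retinal, was higher, at 24.6 and 23.3 FPKM in TAFH-deleted clones, 33.1 and 38.0 in full-length clones, 31.3 and 31.9 in knockout cells and 27.0 and 27.5 in control cells. Against control, knockout was at least 2-fold lower in 4 of the 12, against 5.76% of all genes. These were Dhrs9, Adh7, Aldh1a1 and Bco2, and none was called, against 0% of all genes.

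Among the other carriers and the other degrading enzymes, Cyp26a1 and Cyp26c1 were below 1 FPKM in every library. Fabp5, a fatty acid carrier that also binds retinoic acid, was at 14.8 and 22.5 FPKM in TAFH-deleted clones, 16.1 and 14.1 in full-length clones, 26.1 and 25.9 in knockout cells and 16.5 and 15.6 in control cells. The knockout libraries were the highest, as they were for Crabp2, and TAFH-deleted clone 2 came next. Ppard, the receptor that FABP5 serves, was at 40.4 and 28.1 FPKM in TAFH-deleted clones, 44.0 and 41.3 in full-length clones, 42.2 and 42.5 in knockout cells and 37.4 and 38.4 in control cells.

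Of 17 coregulators that RAR and RXR use, 16 were tested. None passed in any comparison, against 2.62% of all genes between the rescue forms and 0% in the other comparisons. None was 2-fold apart, against 0.166 to 5.94% of all genes by comparison and direction. Between the rescue forms 8 were higher and 8 lower (43.9% of all genes were lower), and their median difference was 0.017. The widest ranges were in Tbl1x, Tbl1xr1, Ncoa2 and Crebbp. Tbl1x, part of the corepressor complex, was at 40.1 and 42.9 FPKM in TAFH-deleted clones, 26.6 and 28.5 in full-length clones, 37.4 and 37.9 in knockout cells and 35.8 and 36.5 in control cells. Its relative Tbl1xr1 was at 19.4 and 15.6 FPKM in TAFH-deleted clones, 21.1 and 21.0 in full-length clones, 13.5 and 13.7 in knockout cells and 18.1 and 17.9 in control cells. Ncoa2, a coactivator, was at 11.1 and 12.5 FPKM in TAFH-deleted clones, 14.8 and 14.1 in full-length clones, 9.41 and 9.96 in knockout cells and 13.0 and 13.1 in control cells. The coactivator gene Crebbp stayed between 10.6 and 16.7 FPKM.

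Of the genes known from other mouse cells to rise with retinoic acid, 37 were in the table and 23 were tested. Between the rescue forms 9 were higher and 14 lower (43.9% of all genes were lower), with a median of -0.27. Gata6, which encodes a transcription factor of endoderm and heart, was the 1 that passed, against 2.62% of all genes. Gata6 was at 0.234 and 0.0412 FPKM in TAFH-deleted clones, 9.95 and 9.83 in full-length clones, 0.678 and 0.655 in knockout cells and 11.5 and 11.8 in control cells. The TAFH-deleted clones and knockout were below 1 FPKM and the others near 10 FPKM or above. The log2 difference between the rescue forms was -3.26 ± 0.19 (SE, limma adjusted p = 0.0347), and knockout differed from control by -2.92 ± 0.26 (adjusted p = 0.128). The log2(FPKM + 1) scale understates this gene too: at a pseudocount of 0.1 the rescue forms differed by -5.52. The call was lost without full-length clone 1 (limma adjusted p = 0.537) or clone 2 (0.396) and with no filter on low genes (0.0713), and over all alternatives its adjusted p lay between 0.000104 and 0.537. Knockout was at least 2-fold lower than control in 5 of the 23, against 5.76% of all genes: Gata6, Meis1, Meis2, Rarres1 and Rarres2, the last 4 named after their values were seen.

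Of 13 other nuclear receptor genes whose products pair with RXR, 8 were tested. None passed, against 2.62% of all genes between the rescue forms and 0% in the other comparisons. Between the rescue forms 1 was higher and 7 lower (43.9% of all genes were lower), and their median difference was -0.35. Vdr, the vitamin D receptor gene, was at 4.80 and 2.64 FPKM in TAFH-deleted clones, 10.7 and 10.9 in full-length clones, 9.99 and 9.84 in knockout cells and 6.39 and 7.07 in control cells. Pparg, the gene of a fat cell receptor, was at 2.96 and 19.5 FPKM in TAFH-deleted clones, 8.68 and 6.33 in full-length clones, 4.49 and 3.71 in knockout cells and 23.9 and 23.4 in control cells. The TAFH-deleted clones thus stood far apart in Pparg, and in the opposite order to Dhrs3. Nr4a1 was at 9.41 and 10.3 FPKM in TAFH-deleted clones, 27.8 and 13.2 in full-length clones, 10.8 and 11.2 in knockout cells and 18.2 and 18.1 in control cells. Nr1h2 stayed between 32.9 and 44.4 FPKM.

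**Figure D4:**
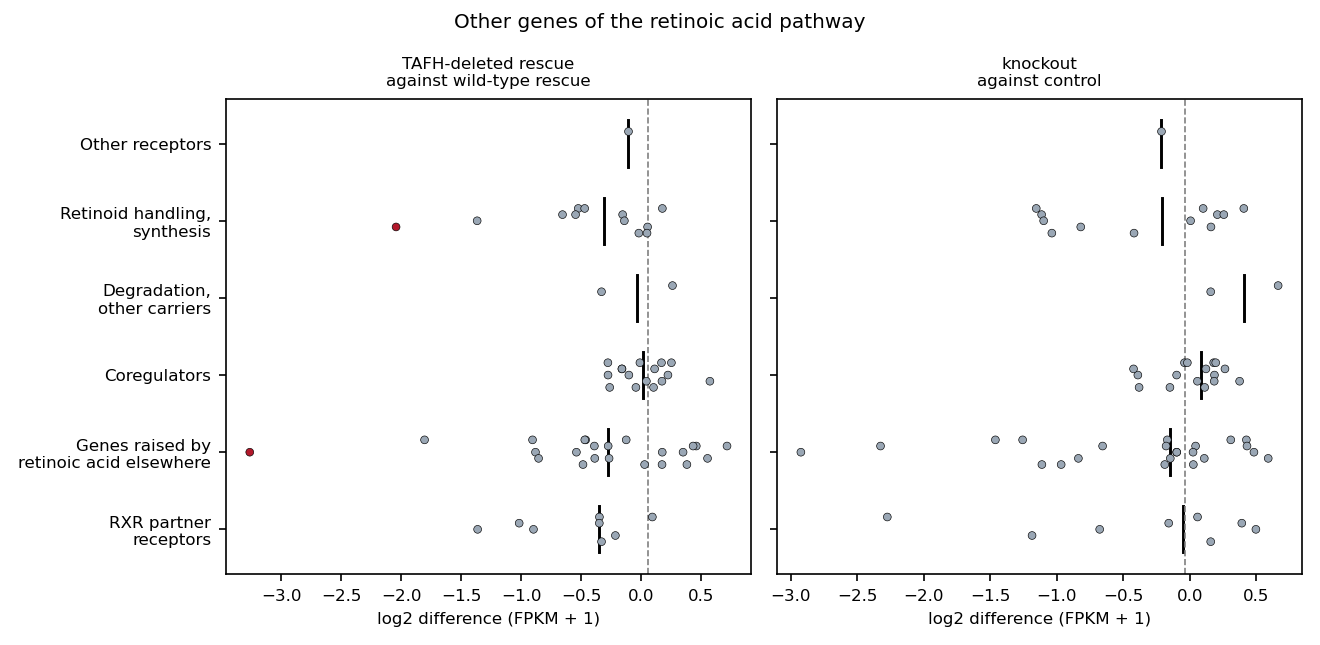
Log2 difference of FPKM + 1 for the tested genes of the 6 lists, in the TAFH-deleted against wild-type rescue (left) and knockout against control (right). Each point is a gene, black bars are list medians, the dashed line is the median of all genes tested and red marks a limma adjusted p under 0.05; Rdh12 at -2.04 and Gata6 at -3.26 are the red points, both in the left panel.

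The genes whose pattern over the 6 samples of the fit was most like that of a given gene were named for the 3 with the widest range, among 9700 genes. For Dhrs3 these were Lmod1, Gtpbp2, Gab1 and Serpinf1, with Pearson r between 0.996 and 0.999 on the log2(FPKM + 1) scale. Lmod1, which encodes the actin regulator leiomodin 1, was at 11.5 and 1.78 FPKM in TAFH-deleted clones, 32.0 and 28.5 in full-length clones, 14.7 and 14.6 in knockout cells and 23.0 and 23.4 in control cells. For Cyp26b1 they were Dip2c, Frk, Acbd4 and Gpam (r between 0.965 and 0.977). For Crabp2 they were Ifi27l2a, Igf2r, F11r and Mkl1 (r between 0.976 and 0.998). Igf2r, which encodes a receptor that also binds retinoic acid, was at 14.9 and 14.9 FPKM in TAFH-deleted clones, 17.2 and 16.5 in full-length clones, 22.8 and 23.7 in knockout cells and 16.4 and 16.2 in control cells. These values rest on 6 points that share their libraries, and are given with no test.

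In bulk RNA, fewer cells of a kind and less RNA per cell cannot be told apart. The labels do not say that libraries of a group came from separate cultures, and knockout and control each entered the test as 1 sample. The p-values therefore measure the spread between the rescue clones, and none of them measures spread within knockout or control. Differences on the log2(FPKM + 1) scale understate the change of low genes such as Rarb.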

How the data were processed

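RNA of 8 mouse embryonic fibroblast libraries was sequenced with an Illumina mRNA protocol, per the labels' protocols. The submitters' processing notes list CASAVA 1.8, TopHat, Cufflinks, Cuffdiff and the mm9 build. Versions of the last 3 of these tools and their normalization options are not given in the sources used here. The authors deposited FPKM values of 30028 RefSeq transcripts, and their Cuffdiff p-values and q-values for 3 comparisons, which are quoted as theirs. The deposited table also gives transcript lengths.

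FPKM were summed per gene and chromosome with Python 3.11.15 and pandas 2.3.3. Once 204.2 bases were taken from the length, low values of 12371 single-transcript genes (1000 bases or longer) were whole numbers of fragments, within 0.05 fragments, for 100% of them in each library. This gave the implied fragments, and Poisson intervals, which cover counting error only. The range of read starts used treats both strands as possible starts.

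The 12025 genes that reached 1 FPKM in 2 or more libraries, with a longest transcript of 300 bases or more, were tested with limma 3.58.1 (trend) in R 4.3.3 on log2(FPKM + 1), two-sided, with Benjamini-Hochberg adjustment at 0.05. Knockout replicates were averaged, as were those of control, which left 6 samples and 2 residual degrees of freedom, with 2.15 prior degrees of freedom, and the spread comes from the rescue clones. Alternatives were another pseudocount, no filter, quantile normalization, all 8 libraries with and without the replicate number, the most abundant transcript alone, only the groups compared, and leaving out each library.

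The members and the lists were chosen with earlier results of these data known. List genes are named where called in a comparison, otherwise up to 4 with a group mean of at least 5 FPKM and the widest range of group means. Sequences are the RefSeq windows of GRCm38.p6.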

Additional observations from a re-analysis of the deposited data

How the results depend on the processing

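Of the results for single genes under all alternatives (the 7 tested genes, with Rdh12 and Gata6 between the rescue forms), 476 kept direction and side of the threshold, 54 passed it anew, 8 lost it and 10 turned round. The 8 losses were in Rdh12 and Gata6. Calls over all genes moved most. For knockout against control, where none passed, 280 genes were called with no filter, 2857 with all 8 libraries and no replicate block (4 of the 7, Crabp2, Cyp26b1, Rara and Rarg) and 2019 with the replicate block (2, Crabp2 and Cyp26b1), and 0 to 2712 (0 to 2 of the 7) with 1 library left out. For the wild-type rescue against knockout the counts were 82 with no filter, 2998 (4) with 8 libraries, 2232 (3) with the block, 3169 (5) with only the groups compared and 0 to 3211 (0 to 5) with 1 left out. For the TAFH-deleted rescue against knockout they were 54, 1074 (1, Crabp2), 461 (1) and 0 to 4013 (0 to 3). For the TAFH-deleted against the wild-type rescue, with 315 called, they were 142 at a pseudocount of 0.1, 36 with no filter, 175 with quantile normalization, 98 with the most abundant transcript, 4566 (3) with 8 libraries, 3921 (2) with the block and 0 to 6722 (0 to 5) with 1 left out. For the wild-type rescue against control they were 312, 2429, 1622, 2854 (1, Dhrs3) with only the groups compared, and 0 to 2953 (0 to 1). Counting 8 libraries treats pairs within sampling noise as replicates, and leaving out a TAFH-deleted clone removes the spread of that form. Replicate numbers did not pair the samples (correlations of same-numbered deviations between -0.0776 and 0.0571), so the block is only a number.

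Directions turned round in Rarb under quantile normalization for knockout against control (0.24) and the wild-type rescue against knockout (-0.040), and in Rarg with the most abundant transcript for the TAFH-deleted rescue against knockout (0.085) and the wild-type rescue against control (-0.11). With 1 library left out, the log2 difference of Rarb ranged from -0.22 (without control replicate 2) to 0.0037 (without control replicate 1) for knockout against control. That of Rxra ranged from -0.40 (without TAFH-deleted clone 1) to 0.32 (without clone 2) for the TAFH-deleted rescue against knockout, and from -0.65 to 0.067 against the wild-type rescue, without the same clones. For the wild-type rescue against control, Rarb ranged from -0.082 to 0.15, turning without control replicate 2 and without wild-type clone 1 (-0.01), and Cyp26b1 from -0.55 to 0.25, turning without wild-type clone 2. The cause was not tested. A fit of only the groups compared was not possible for knockout against control, which leaves no residual degrees of freedom. Depth limits Crabp1, Stra6 and Rarb.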
